A study of Saccharomyces cerevisiae with 91 samples.

Results

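In budding yeast, most genes carry their first nucleosome downstream of the promoter, the +1 nucleosome, at a fixed short distance from the transcription start site (TSS). A group of genes was examined here in which the centre of that nucleosome, its dyad, was placed much farther downstream, 130 bp or more from the TSS along the direction of transcription. The members were read from a table with 1 row per transcript that lists, for protein-coding genes (open reading frames, ORFs), the TSS, the +1 dyad and the −1 dyad upstream of it. Of 4528 ORF rows with a TSS and a +1 dyad, 404 met this limit, or 8.92%, and since the limit itself chose them this share is a description and was not tested. The 404 rows stand for 403 genes on all 16 chromosomes, each with its own +1 position. PCK1, the gluconeogenic enzyme phosphoenolpyruvate carboxykinase, entered with both of its rows. They are set beside the 2391 ORF rows in which the +1 dyad lay 40 to 74 bp from the TSS, and beside all ORF rows.

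The study reconstituted yeast chromatin in vitro with purified INO80 complexes and compared the resulting nucleosome positions with those in cells. Of its 91 sequencing samples, only the single in vivo library bears on these genes, taken here as the source of the −1 and the first +1 column. The columns themselves name no sample, and this assignment is read from the methods of the study. The library came from nuclei of the wild-type laboratory strain BY4741 grown to logarithmic phase in rich medium. It was sequenced after digestion with micrococcal nuclease (MNase-seq), which cuts the DNA between nucleosomes. There was no replicate, no mutant and no treated sample for these positions, and the table gives no read depth, so no error of measurement can be attached to a single position. The intervals given below cover the choice of genes only, and no difference between groups of genes was tested.

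As background, the nucleosome-depleted region (NDR) between the −1 and the +1 nucleosome is where transcription factors and the preinitiation complex bind. In yeast the TSS usually lies just inside the upstream edge of the +1 nucleosome. General regulatory factors such as Reb1, Abf1 and Rap1, stiff runs of adenines, and remodelers such as RSC and INO80 are known to set the borders of the NDR. Promoters with a TATA box, common among stress-induced and metabolically regulated genes, are known for a less regular arrangement.

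Sequences are shown for 3 features that recur in the results: a TATA element upstream of the TSS, a −1 dyad that falls on the TSS, and a +1 dyad that falls inside the coding sequence. All are read from the R64 reference in the direction of transcription. For the TATA element, spelled TATA, then A or T, A, A or T, and A or G, the capitals mark the match.
HAP4, chrXI:231807-231854, + strand: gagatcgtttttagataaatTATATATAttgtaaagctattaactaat
RPN4, chrIV:416983-417030, − strand: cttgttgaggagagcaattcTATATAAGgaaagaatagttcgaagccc
PMA1, chrVII:482974-483021, − strand: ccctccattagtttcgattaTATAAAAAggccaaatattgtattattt
TDH3, chrVII:883924-883971, − strand: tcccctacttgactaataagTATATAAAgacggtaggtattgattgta
HTB1, chrIV:914838-914871, − strand: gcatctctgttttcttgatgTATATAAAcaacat

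In the next set, each sequence is the last 50 bp before the TSS and the capital marks the base at the −1 dyad.
YDJ1, chrXIV:507312-507361, − strand: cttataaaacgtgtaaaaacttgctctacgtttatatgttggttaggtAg
HAA1, chrXVI:572411-572460, + strand: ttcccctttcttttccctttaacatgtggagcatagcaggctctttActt
CDC20, chrVII:289613-289662, + strand: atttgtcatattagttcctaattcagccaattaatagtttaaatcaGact
CUS1, chrXIII:751647-751696, − strand: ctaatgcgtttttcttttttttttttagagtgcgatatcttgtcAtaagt

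In the last set, the capital marks the base at the +1 dyad within the first coding exon of the gene.
ASH1, chrXI:94564-94604, + strand: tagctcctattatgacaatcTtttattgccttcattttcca
PFK1, chrVII:973659-973699, − strand: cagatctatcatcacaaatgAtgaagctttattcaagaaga
SSA1, chrI:141332-141372, − strand: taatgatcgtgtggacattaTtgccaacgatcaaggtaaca

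Across the 404 far ORFs the +1 dyad lay at a median of 172 bp from the TSS, with quartiles at 150 and 206 bp and a highest value of 447 bp. The median over all ORFs was 54 bp. The group had no lower border of its own: 6 ORFs sat at exactly 130 bp and 7 at 129 bp. Just inside were RSC6, a subunit of the RSC remodeler, SUT1, a regulator of sterol uptake, and SWD2, a subunit of a histone methyltransferase complex, all at 130 bp. Just outside, at 129 bp, were ERV14, an export receptor for membrane proteins, NMA2, an enzyme of NAD synthesis whose row also names YGR011W, and HSV2, a phosphoinositide-binding protein. The far ORFs thus formed the tail of a continuous distribution.

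**Figure D1:**
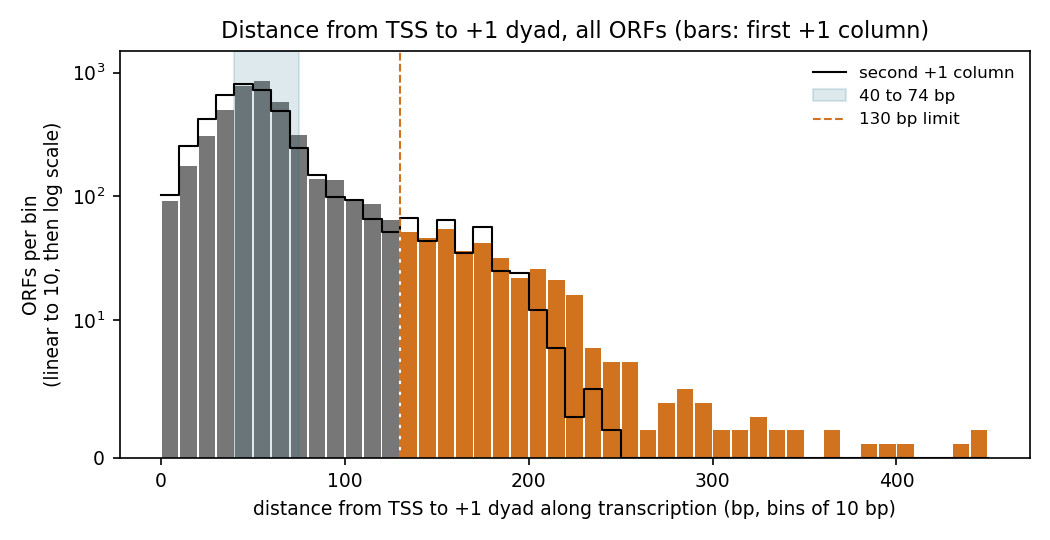
Number of ORFs per 10 bp bin (vertical axis, linear to 10 and logarithmic above) against the distance from TSS to +1 dyad in bp; bars are the first +1 column, orange from 130 bp on, the black line is the second +1 column and the shaded band marks 40 to 74 bp. Both columns peak near 50 bp and run on past 130 bp, and the second column ends at 240 bp while the first reaches 447 bp.

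The table holds a second +1 column, whose origin is not given in the sources used here. Its coordinates ended in the digit 1 in 4947 of 4949 rows, so it was read on a grid of 10 bp, whereas 486 of 4955 first-column coordinates ended in 1. In the whole table its distance from the TSS never passed 240 bp. For the 33 far ORFs placed beyond 260 bp by the first column, the columns could therefore not lie within 20 bp of each other.

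Both columns lay within 20 bp of each other in 169 of the 402 far ORFs that have both values, or 42.0% (95% Wilson interval 37.3 to 46.9). The share was 84.2% in the ORFs at 40 to 74 bp and 76.2% over all ORFs. In 221 far ORFs the second column lay more than 20 bp upstream of the first, at a median of 42 bp from the TSS, and in 12 it lay more than 20 bp downstream. The step back was 120 bp or more, close to a whole nucleosome, in 147 ORFs, and over all ORFs the count was also 147. The second dyad never lay upstream of the TSS, so no ORF at 40 to 74 bp could show such a step. Members were chosen by a high first reading, so the direction and size of these steps are partly given by that choice. Read by the second column alone, 346 of 4527 ORF rows were far, or 7.64%, and 197 rows were far in both columns. The name of the group therefore holds under both readings for 197 of its 402 members with both values, and rests on the first column for the rest. YNR070W, a putative transporter of the ABC family, and YNR071C, an uncharacterized ORF, had no second value.

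Second-column distances of the far ORFs had 2 peaks. They lay at 0 to 19 bp in 52 ORFs and at 20 to 39 bp in 55, thinned to between 17 and 25 per 20 bp from 40 to 119 bp, and rose again to 49, 68 and 58 ORFs at 120 to 139, 140 to 159 and 160 to 179 bp. In all, 107 of 402, or 26.6%, were at 0 to 39 bp, against 32.0% over all ORFs. Only 39 of 402, or 9.70%, came out at the usual 40 to 74 bp, against 47.7% over all ORFs. The share within 20 bp was 56.1% among ORFs at 130 to 149 bp, 67.8% at 150 to 169 bp, 39.6% at 170 to 199 bp, 19.5% at 200 to 249 bp and 0 beyond, where the limit of the second column at 240 bp also applied. Short of the 130 bp limit it was 67.9% at 75 to 99 bp and 61.3% at 100 to 129 bp. A share below that of the ORFs at 40 to 74 bp was thus not particular to the far ORFs.

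**Figure D2:**
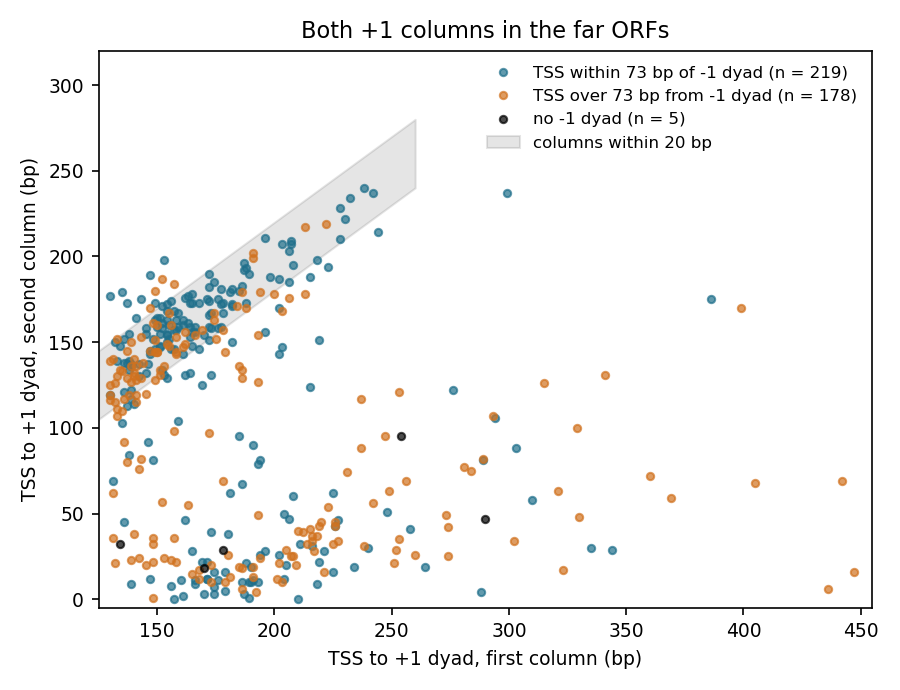
Distance from TSS to +1 dyad in bp in the second column (vertical) against the first column (horizontal) for 402 far ORFs, blue where the TSS lies within 73 bp of the −1 dyad, orange where it lies farther from it and black where no −1 dyad is listed. One cloud follows the band in which the columns lie within 20 bp, and another lies along the bottom at 0 to 50 bp, reached by both colours.

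The far ORFs were divided into 2 forms by the distance of the −1 dyad from the TSS, which varied continuously from 1 to 463 bp. In 221 of the 399 that have a −1 dyad, or 55.4% (95% Wilson interval 50.5 to 60.2), the TSS lay within 73 bp of it, that is inside the DNA wrapped by the −1 nucleosome as called. Among the ORFs at 40 to 74 bp this held for 58 of 2377, or 2.44%. There the calling of dyads, which removed 120 bp to either side of each, kept the −1 dyad at least 46 bp from the TSS. The share in that group was thus held low by the calling, and the contrast is a description only. Over all ORFs the TSS was inside the −1 core in 401 rows, and 221 of these were far. By distance of the +1 dyad, the share was 9.65% at 75 to 99 bp, 30.7% at 100 to 129 bp and 44.3% at 130 to 149 bp. It was 67.0% at 150 to 169 bp and at 170 to 199 bp, 53.8% at 200 to 249 bp and 30.8% beyond. A TSS in the −1 core was thus not particular to the far ORFs. The NDR length in the table is by construction the sum of both distances, −1 dyad to TSS and TSS to +1 dyad, and was so in all 4903 rows with the 3 values. The −1 nucleosome is also defined from the +1, so neither distance is independent of the choice of members, and shorter NDRs in the first form than in the second follow from the division itself. The values below describe them.

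In the first form the median position of the −1 dyad was 20 bp before the TSS and the dyads were 197 bp apart (quartiles 177 and 230 bp). This is shorter than the 269 bp of the ORFs at 40 to 74 bp, and 151 of the 221 had dyads less than 220 bp apart. In the second form, 178 ORFs, the −1 dyad lay 171 bp upstream and the NDR measured 374.5 bp (quartiles 281 and 459.2 bp), with 76 of 178 at 400 bp or more. Over the whole group the median NDR length was 244 bp (interval 234 to 256), against 265 bp over all ORFs. Both forms had nearly the same distance from TSS to +1 dyad, 172 and 174.5 bp. The columns lay within 20 bp of each other in 111 of the 219 ORFs of the first form with both values and in 58 of the 178 of the second.

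**Figure D3:**
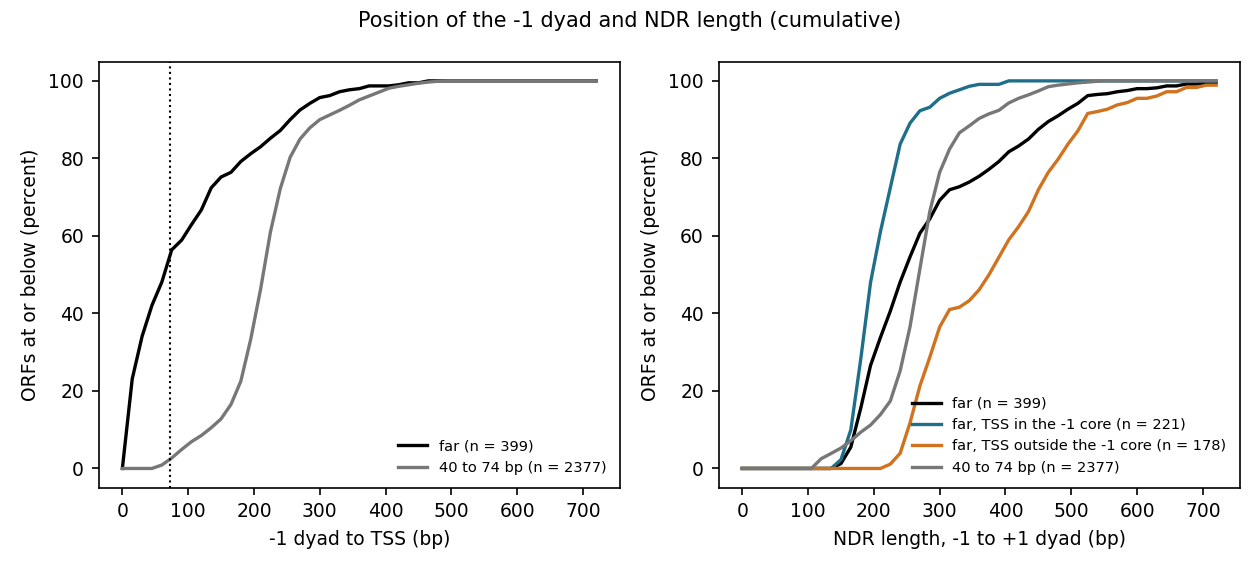
Cumulative percent of ORFs against the distance from −1 dyad to TSS (left) and against NDR length (right), both in bp, for the far ORFs (black), the ORFs at 40 to 74 bp (grey) and, on the right, the far ORFs with the TSS inside (blue) and outside (orange) the −1 core; the dotted line marks 73 bp. The blue curve rises to the left of the grey one and the orange curve to its right, with medians of 197, 269 and 374.5 bp.

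The second column was also read within each form. In the first form 53 of the 100 ORFs with an upstream second reading had it within 73 bp of the −1 dyad, so that what the first column lists as the −1 nucleosome and what the second lists as +1 were placed on overlapping DNA. YDJ1, the type I Hsp40 co-chaperone, shows this: its −1 dyad lay 2 bp upstream of the TSS, its second +1 dyad 10 bp downstream and its first +1 dyad 190 bp downstream. In the second form the division itself kept the second dyad more than 73 bp from the −1, since it never lay upstream of the TSS. In 75 of the 116 ORFs of this form with an upstream second reading, it lay 120 bp or more from both the −1 and the first +1 dyad. There the second reading named a nucleosome in the middle of the region that the first column left empty. HRP1, a subunit of the cleavage factor for mRNA ends, had its −1 dyad 282 bp upstream and its +1 dyad 447 bp downstream, with the second dyad at 16 bp in between.

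The 15 ORFs with the farthest +1 dyad ran from 321 to 447 bp. Besides HRP1 they were led by ASH1, the repressor of mating-type switching in daughter cells, with +1 at 442 bp and 69 bp in the second column. YAP1802, an adaptor of clathrin coats, had 436 bp in the first column and 6 bp in the second. MRH1, a membrane protein related to Hsp30, had 405 and 68 bp. In these 4 ORFs the first column placed the +1 dyad at least 337 bp downstream of the second.

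HAP4, the activating subunit of the Hap complex of respiratory genes, had 399 bp in the first column and 170 bp in the second, and CUS1, a subunit of the U2 splicing particle, had 386 and 175 bp. RPN4, the transcription factor that drives proteasome genes, had 369 and 59 bp. The +1 dyad of RPS9A, a protein of the small ribosomal subunit, was at 360 bp in the intron of the gene, with the second at 72 bp. None of the 15 had its columns within 20 bp, and 12 had the second dyad under 130 bp. HAP4, CUS1 and TPO2, a spermine transporter, were the exceptions, so their +1 dyad was far under both readings, with 131 bp for TPO2 in the second column.

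The other members of the 15 were PDR16 (344 bp), a phosphatidylinositol transfer protein, HAA1 (335 bp), an activator of the response to weak acids, PFK1 (330 bp), the alpha subunit of phosphofructokinase, SSA1 (329 bp), a cytosolic Hsp70, FLR1 (323 bp), a multidrug transporter, and YPC1 (321 bp), a ceramidase. Of the 15, 13 had an NDR of 400 bp or more and 3 had the TSS inside the −1 core: CUS1 with the −1 dyad 6 bp upstream of the TSS, HAA1 with 4 bp and PDR16 with 60 bp. Since the NDR length contains the distance that ranked these 15, wide NDRs among them are largely given by the ranking.

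**Figure D4:**
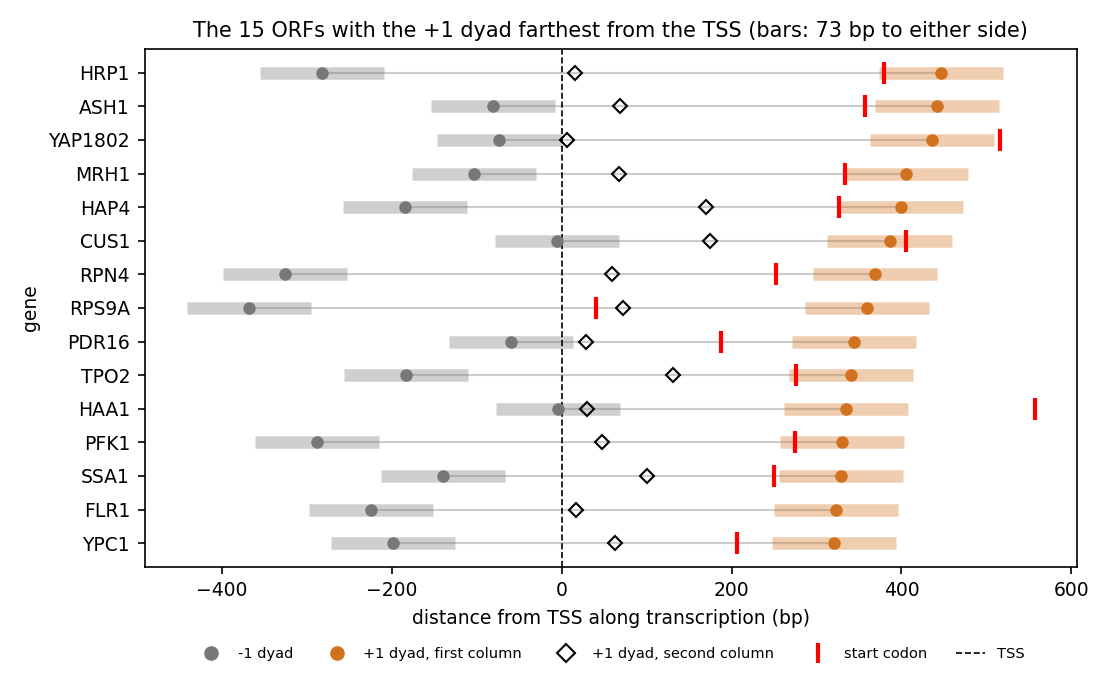
Positions in bp from the TSS (dashed line, downstream to the right) of the −1 dyad (grey), the +1 dyad in the first (orange) and second column (open diamond) and the start codon (red tick) for the 15 ORFs with the farthest +1 dyad; bars span 73 bp to either side of a dyad, and the start codon of FLR1, at 989 bp, lies off the axis. The open diamonds fall between the grey and the orange dyads in every row, and 3 grey bars cover the TSS.

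The far +1 dyad was often near the start of the coding sequence. The stretch from TSS to start codon, the leader, had a median of 154.5 bp (interval 144 to 165) in the far ORFs, 58 bp in the ORFs at 40 to 74 bp and 69 bp over all ORFs. The median +1 dyad was 29 bp past the start codon, against 3 bp before it at 40 to 74 bp. It was at or past the start codon in 265 of 404 far ORFs, or 65.6%, compared with 47.1% and, over all ORFs, 43.7%. With the second column this share was 37.1%, because that reading is often nearer the TSS, against 39.9% at 40 to 74 bp and 37.3% over all ORFs. The TSS and the first +1 dyad both enter the rule that chose the members. The contrasts in leader length and in place of the first +1 dyad are therefore descriptions only. By place, 258 far +1 dyads lay in the gene's own coding exon, 136 in its own leader and 5 in its own intron.

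Among the 15 farthest, 11 had the +1 dyad past the start codon, and in 7 of these the start codon fell 55 to 85 bp before the dyad, near the upstream edge of the nucleosome. The distances were 68 bp for HRP1, 85 bp for ASH1, 71 bp for MRH1, 73 bp for HAP4, 65 bp for TPO2, 55 bp for PFK1 and 79 bp for SSA1. This was noticed after the values were seen. A window of 53 to 93 bp past the start codon held the +1 dyad of 69 of 404 far ORFs, or 17.1% (95% Wilson interval 13.7 to 21.1), and of 3.62% of all ORFs. At 40 to 74 bp from the TSS it held 1.55%, where a dyad can reach that window only when the leader is very short or absent.

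A start triplet ATG occurred in the leader of 197 of 389 far ORFs, or 50.6%, against 20.9% at 40 to 74 bp and 27% over all ORFs; longer leaders offer more positions for it. FLR1 had 22 such triplets in a leader of 989 bp, and PHO80, the cyclin of phosphate control, had 9 in 833 bp. Some TSS entries went against the coding annotation. In 14 far ORFs, or 3.47%, the TSS lay downstream of the annotated start codon, near the 2.84% over all ORFs; the haspin-like kinase gene ALK1 and the protease gene BAR1 are examples. The entry for the confidence of transcript ends read mapped3 in 23 far ORFs, or 5.69%, out of 65 such ORF rows in all. The share was 1.44% over all ORFs and 0.125% at 40 to 74 bp. Only the leader median was also computed without these rows, as given with the processing alternatives. Their part in the distances to the dyads was not tested.

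Named groups of genes held unequal shares of far ORFs, to be read against the 8.92% over all ORFs. Of 71 plasma membrane transporters, 16 were far, or 22.5%, and 11 of the 16 were far in the second column as well. PMA1, the proton pump of the plasma membrane, had its +1 dyad at 274 bp and its paralog PMA2 at 244 bp, but the second column gave 25 bp for PMA1 and 214 bp for PMA2. In 13 of the 16 the TSS was inside the −1 core. MUP1, a methionine permease, DIP5, a permease of acidic amino acids, and ATO3, a transporter linked to ammonia export, had the −1 dyad 1, 2 and 3 bp upstream of the TSS, and their second +1 dyads stood at 131, 153 and 156 bp, far in both columns.

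Of 119 sequence-specific transcription factors, 25 were far, or 21%. ASH1, HAP4 and HAA1 led them, followed by MSN4, an activator of the general stress response, at 256 bp with 69 bp in the second column. IME1, the master regulator of meiosis, had 207 bp in both columns and its −1 dyad 1 bp upstream of the TSS. In this list 13 had the TSS inside the −1 core and 12 outside it.

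Heat shock proteins and chaperones counted 10 far of 56, or 17.9%. After SSA1 came SIS1, a type II Hsp40, at 251 bp with 21 bp in the second column, SBA1, a co-chaperone of Hsp90, at 194 bp with 26 bp, and YDJ1. The paralogs for Hsp90 differed in the second column: HSC82, made at all times, had 179 and 10 bp, whereas HSP82, induced by heat, had 139 and 136 bp. Of the 10, 3 were far in both columns: HSP12, a small membrane-associated stress protein, SSE2, an Hsp110, and HSP82.

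Amino acid biosynthesis enzymes had 13 far of 80, or 16.2%. ARO9, an aromatic aminotransferase, stood at 281 bp and ALT2, an alanine transaminase homolog, at 219 bp. MET3, the ATP sulfurylase of sulfate assimilation, had 191 bp in the first and 11 bp in the second column. In 9 of the 13 the TSS lay in the −1 core. Glycolytic and fermentative enzymes had 5 far of 31, or 16.1%: PFK1, CDC19, which is pyruvate kinase, at 193 bp, TDH3, a glyceraldehyde-3-phosphate dehydrogenase, at 152 bp, ALD3, an aldehyde dehydrogenase, at 149 bp, and PDC6, a minor pyruvate decarboxylase, at 136 bp. Only 7 of the 31 were at 40 to 74 bp, and the median of the list was 88 bp.

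None of 63 mitochondrial ribosomal protein genes was far, and 50 of them were at 40 to 74 bp. Among ribosome biogenesis factors, 4 of 148 were far, or 2.70%: FAL1, an RNA helicase, at 226 bp, RRP8, a methyltransferase of ribosomal RNA, at 209 bp, LOC1 at 140 bp and DHR2, another helicase, at 136 bp. None of the 4 had the TSS in the −1 core. Of 131 cytosolic ribosomal protein genes 9 were far, or 6.87%, near the share over all ORFs, among them RPL26A at 193 bp, RPL38 at 186 bp and RPS19B at 174 bp after RPS9A. The dyads of RPS9A, RPL26A and RPS19B lay in the introns of their genes.

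Small lists gave single genes more than shares. Histone genes had 2 far of 9: HTB1, for histone H2B, at 179 bp and CSE4, for the histone H3 variant of centromeres, at 150 bp, and none of the 9 was at 40 to 74 bp. HTB1 read 16 bp in the second column with the −1 dyad 5 bp upstream of the TSS, whereas CSE4 read 144 bp. Cyclins and cell cycle regulators had 3 far of 26: PHO80 at 174 bp, CDC20, an activator of the anaphase-promoting complex, at 165 bp and PCL8, a cyclin of Pho85, at 154 bp. All 3 were far in both columns with the TSS inside the −1 core. The proteasome list had 2 far of 35, of which RPN4 is a transcription factor caught by its name and only PRE10, at 142 bp, is a subunit.

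Cell wall mannoproteins had 5 far of 51, or 9.80%, with TOS1 at 173 bp, TIR1, a mannoprotein induced in the cold, at 148 bp, PST1 at 136 bp and UTR2, a cell wall crosslinking enzyme, at 135 bp. Kinases and phosphatases of signalling had 5 far of 87, or 5.75%, led by SIT4, a phosphatase, at 290 bp, PSK2, a PAS kinase, at 218 bp, REG2, a phosphatase regulator, at 185 bp and PPZ2, a phosphatase of salt homeostasis, at 152 bp. Genes known for upstream open reading frames had 3 far of 24, among them HAP4 and SLM2, a target of phosphoinositide signalling, at 187 bp. ORFs without a gene name in the table had 66 far of 684, or 9.65%, near the share over all ORFs; YOR338W at 289 bp, YEL007W at 288 bp, YMR265C at 258 bp and YDR539W at 248 bp came first.

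The sequence upstream of the TSS was not used to choose the members. In the 150 bp before the TSS, on the coding strand, the TATA consensus matched 101 of 404 far ORFs, or 25% (95% Wilson interval 21 to 29.4), against 13% at 40 to 74 bp and 16.3% over all ORFs. The core letters TATAAA alone, which overlap the consensus, matched 19.3%, 15.4% and 16.6%. In HAP4 the first base of the match was 74 bp upstream of the TSS, in RPN4 50 bp, in PMA1 95 bp, in TDH3 53 bp and in HTB1 14 bp. The matches of HTB1 and PMA1, whose −1 dyads lay 5 and 130 bp upstream of the TSS, were thus inside the −1 nucleosome as called. By form, the consensus matched 58 of the 221 ORFs with the TSS in the −1 core and 42 of the 178 outside it.

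Motifs of Reb1 and Abf1 went the other way, and that of Rap1 did not. The letters TTACCC of the Reb1 motif, on either strand, were found in 7.43% of the far ORFs (interval 5.25 to 10.4), 16.8% of those at 40 to 74 bp and 15.3% of all. The Abf1 motif, TCA and ACG with 6 bases between them, on either strand, was found in 7.18%, 16.2% and 14.0%. The letters CACCCA of the Rap1 motif, on either strand, were found in 4.46%, 3.81% and 3.93%. Runs of at least 6 adenines on the coding strand occurred in 23.3% of the far ORFs and in 34.7% of those at 40 to 74 bp, and runs of 6 thymines in 34.4% and 36.1%.

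Because the window hangs on the TSS, the motifs were also sought in the 300 bp before the start codon. There TTACCC was found in 12.9% of the far ORFs and 19.1% of those at 40 to 74 bp, and the Abf1 motif in 8.66% and 18.6%. On either strand, the lower shares of both motifs in the far ORFs were seen from either anchor, with a smaller gap for Reb1. On the coding strand alone, TTACCC was found before the start codon in 8.91% and 10.6%. The Abf1 motif was found in 3.71% and 9.92%. The far ORFs have longer leaders, so this window holds less of their sequence upstream of the TSS. Over the whole group the order of the adenine runs was reversed there, with 54.7% in the far ORFs and 47.3% at 40 to 74 bp. The reversal was seen in the second form, at 67.4%, and not in the first, at 44.3%. Runs of thymines occurred in 55.9% of the far ORFs and 46.2% of those at 40 to 74 bp. For the group as a whole, the lower share of adenine runs thus holds only for the window before the TSS. A match is a string of letters and not a bound factor.

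**Figure D5:**
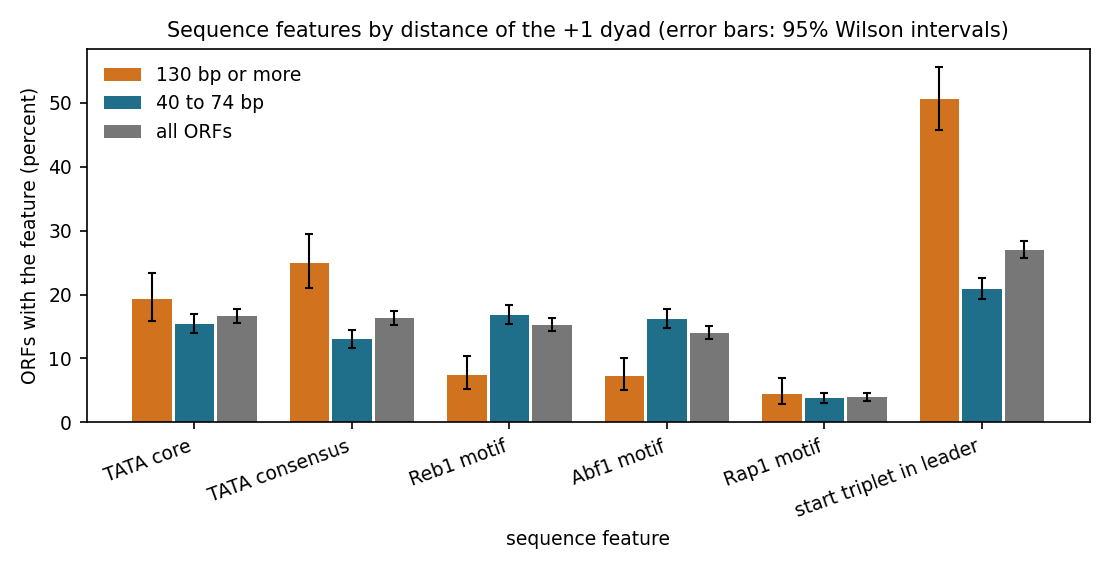
Percent of ORFs that hold each sequence feature, for the far ORFs (orange), the ORFs at 40 to 74 bp (blue) and all ORFs (grey), with 95% Wilson intervals over ORFs; the first 5 features are motifs in the 150 bp upstream of the TSS and the last is a start triplet in the leader. The orange bars exceed the blue for the TATA consensus (25 and 13%) and the start triplet (50.6 and 20.9%) and fall below for Reb1 (7.43 and 16.8%) and Abf1 (7.18 and 16.2%).

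Base composition differed between the readings over the whole group. The 147 bp core at the first +1 dyad had a median GC content of 39.5% in the far ORFs and 38.1% at 40 to 74 bp, while the core at the second dyad of the far ORFs had 36.7%. In the 197 ORFs far in both columns the cores had 39.5% and 38.8%. The first dyad lay in the gene's own coding exon in 63.9% of the far ORFs and in 46.2% at 40 to 74 bp. Around the TSS itself, 73 bp to either side, GC was 34% in the far ORFs and 35.4% at 40 to 74 bp. It was 35.4% in the far ORFs with the TSS in the −1 core and 31.3% in those with the TSS outside it. The second dyads of that form lay on DNA of 34.7% GC. MNase cuts AT-rich DNA more readily, and the part of this in the positions was not tested.

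Repeated sequence, to which reads could not be assigned, was rare. A 50 bp word found elsewhere in the genome lay between TSS and +1 dyad in 2 of 404 far ORFs, TDH3 and TEF2, a gene for elongation factor 1A, both of which have near-identical paralogs. The share was 0.495%, against 0.335% at 40 to 74 bp and 0.375% over all ORFs. With words of 36 bp the count was 6 of 404, or 1.49%, against 0.376% at 40 to 74 bp and 0.596% over all ORFs. The stretch searched is longer in the far ORFs. In the first 130 bp from the TSS of every ORF, 50 bp words were found in 0.495% of the far ORFs. The shares there were 0.502% at 40 to 74 bp and 0.552% over all ORFs. For TDH3, with its +1 dyad at 152 bp and 57 bp in the second column, the position is thus uncertain.

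The neighbourhood of the far ORFs was also described. The nearest annotated gene upstream lay at a median of 421.5 bp from the TSS, against 289.5 bp at 40 to 74 bp, and it was transcribed divergently in 52.5% and 53.3%. In 8 divergent pairs both genes were far, that is 16 of the 212 far ORFs with a divergent upstream gene. This is to be read against the 8.92% of all ORFs that were far, and is not a trait of the group. In 4 of the 8 pairs both genes were assigned the very same −1 dyad. IDP1, the mitochondrial isocitrate dehydrogenase, and COX9, a subunit of cytochrome c oxidase, had TSSs 67 bp apart and the shared dyad 39 and 28 bp upstream of them. Their +1 dyads lay at 172 and 230 bp, and at 151 and 222 bp in the second column, so that the dyad called between them covered both start sites and the +1 dyads were far under either reading. YAP1802 and FMP43, a subunit of the mitochondrial pyruvate carrier, had TSSs 147 bp apart with the shared dyad 74 and 73 bp upstream, midway between them. The other pairs were HOS3, a histone deacetylase, with IDI1, an enzyme of isoprenoid synthesis, and YCR007C with SAT4, a kinase of ion transport; there the shared dyad was 21 bp from the TSS of IDI1 and 12 bp from that of YCR007C, and over 450 bp from the other.

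In 5 far ORFs no −1 dyad was listed, so that they belong to neither form. These were ACT1, for actin, BUR6, a subunit of a general transcription repressor, LAC1, a ceramide synthase, SIT4, and URA2, the first enzyme of pyrimidine synthesis. Their +1 dyads lay between 134 and 290 bp, and their second-column distances between 18 and 95 bp.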

How the data were processed

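The in vivo library was 1 wild-type MNase-seq sample with single-end reads. Per the methods of the study, the authors aligned the reads with Bowtie to SacCer3 (R64), left out reads with several matches, shifted read ends by 73 bp, smoothed with a Gaussian of 25 bp SD and picked dyads as successive maxima, removing 120 bp to either side and keeping the top 90%. The +1 was the dyad nearest the TSS within 500 bp downstream and the −1 the next dyad upstream. The values deposited by the authors are genome coordinates and lengths in bp, with no counts or depth; 9 further value columns were not used. Distances were computed by strand, and start codons, introns and neighbours were taken from RefSeq R64 annotation with python 3.11.15, pandas 2.3.3 and scipy 1.17.1. Calculations were tested on simulated data. Medians carry binomial order-statistic 95% intervals. The genes named are the 15 farthest, the 3 to either side of 130 bp, up to 4 per list (some are not reported here) and the 5 whose columns differ most; others (IME1, MUP1, DIP5, ATO3, HSC82, HSP82, HSP12, SSE2, PDC6, pairs and exceptions) were chosen after their values were seen. Members and lists were chosen with earlier results of these data known.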

Additional observations from a re-analysis of the deposited data

How the results depend on the processing

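Of 33 alternatives to 10 results, 24 stayed within the interval of the value reported or within 1.5 times of a count. With the second +1 column the median NDR length was 205 bp in place of 244 bp, the share with the +1 dyad at or past the start codon 37.1% in place of 65.6%, and GC of the core 36.7% in place of 39.5%. The share with both columns within 20 bp (42.0%) became 25.4% at 10 bp, the spacing of the grid of the second column, and 52.0% at 40 bp. The share with the TSS in the −1 core (55.4%) was 48.1% with a limit of 60 bp. The share with TATAAA (19.3%) was 25% with the consensus, 34.2% in the 300 bp upstream of the start codon and 29.0% on either strand. Each of these shifts went with a change of column, limit, motif or window, and what lies behind them was not tested. With limits of 120 and 150 bp the group held 469 and 306 ORFs. In 2 alternatives chosen after seeing the data, the leader median was 154 bp without rows marked mapped3 or mappedNone, and repeated words in the first 130 bp were found in 0.495%.

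No paired analysis was possible because the table holds a single set of positions with no values per replicate. The read depth is unknown, so the precision of a dyad, and whether a weaker nucleosome lay nearer the TSS, cannot be judged from the table. The published TSS annotation is taken as given, and a TSS placed too far upstream and a +1 nucleosome far downstream cannot be told apart.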

Other observations

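Genes of the INO80 complex, the remodeler of the study, and of the RSC complex were counted after values of some of them had been seen. Of 15 INO80 subunit genes with values, 3 were far, and of 16 RSC subunit genes 3 were far, against 8.92% of all ORFs; with so few genes these counts say nothing about the complexes. INO80, the ATPase of its complex, had its +1 dyad at 168 bp and 17 bp in the second column, with a leader of 685 bp. IES6 had 139 and 23 bp with a leader of 709 bp, and ACT1 had 178 and 29 bp. STH1, the ATPase of RSC, had 191 and 13 bp, whereas RSC6 had 130 and 116 bp and ARP7, an actin-related subunit of RSC, had 168 and 146 bp.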
